A study of Mus musculus with 9 samples.

Results

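The interferon response genes described here are 36 mouse genes that a cell switches on, or keeps ready, for defence against viruses and intracellular microbes. They were taken by symbol from a list, and all 36 were found among the 54007 genes or gene models of a liver RNA-seq table. The RNA was taken at postnatal day 98 from livers of C57BL/6 mice, with 3 libraries for each of 3 groups: control mice (replicates 1, 2 and 4), mice on a high-fat diet (HFD, replicates 1, 2 and 3), and mice on a high-fat diet that also received the bacterium *Papillibacter cinnamivorans* by gavage (HFD+Pc, replicates 1, 3 and 4). The mice were 6 weeks old at the start, with 15 assigned to each group. The sources used here do not give their sex, the control diet, or whether the control and HFD mice received a gavage without the bacterium. Nor do they say if several mice were pooled in a library, and the p-values therefore measure only the spread between libraries, which may be technical.

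Type I and type III interferons bind receptors whose kinases, Jak1 and Tyk2, phosphorylate Stat2. With Irf9 it forms part of a complex that binds interferon-stimulated response elements, while interferon-gamma acts mainly at gamma-activated sites. Irf7 amplifies the response by driving interferon transcription itself. In liver, hepatocytes respond to interferons, and Kupffer cells, the resident macrophages, both produce and respond to them.

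Values are FPKM, which divide reads by gene length and library size, so levels can be compared between genes. Library totals recovered from them were 16559928 to 18928014 reads, with 10323 to 10587 genes at or above 1 FPKM. The counting floor of 3 reads was worth 0.160 to 0.179 FPKM for a 1 kb gene. The 36 members had 26 (Oas1g) to 10609 (Iigp1) reads in a library. A difference is given in log2(FPKM + 1) units ± SE from limma, a scale that understates changes of low genes, and a gene passed at an adjusted p (Benjamini-Hochberg over all 10988 tested genes) under 0.05. Of the members, 35 were tested, and Mx1 was below the filter of 1 FPKM in 3 libraries. Replicate 3 of the HFD group stood apart from its group on the second principal component over all tested genes (-3.9, against -17.6 and -18.9 for HFD replicates 1 and 2), toward the HFD+Pc libraries (7.0 to 10.8). The labelled tissue fitted its markers: Alb, which encodes serum albumin, ranged from 26086 to 41658 FPKM.

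Promoter sequences from RefSeq (GRCm38.p6), 250 bases before to 50 bases after each start, were held for 28 of the 36 members. They were searched on both strands for an interferon-stimulated response element, taken as TTTC repeated after a gap of any 2 bases (GAAA, any 2 bases and GAAA on the other strand), and for a gamma-activated site, TTCNNNGAA, which reads the same on both strands. A response element was present in 17 of 28 members (60.7%) and in 3.99% of 27025 genes in the table. A gamma-activated site was present in 8 of 28 members (28.6%) and in 9.55% of all genes, and 5 members had both. Of the 7 interferon-inducible GTPases in the table, 6 had a response element. Irf7, Oasl1 and Trim25 had neither motif in this window, which says only that these letters are absent there. No promoter was held for Usp18, Zbp1, Iigp1, Dhx58, Rtp4, Ifi27, Mx1 and Parp14.

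The stretches below show how the motifs are laid out in some of the members, and are printed 5′ to 3′ on the gene's strand with the motif bases in capitals. Of the genes printed, only Ifit3 and Bst2 passed in a comparison with all libraries. Ifit1 (chr19:34640770-34640828, plus strand) carries a pair of response elements. Ifit3 (chr19:34583358-34583431, plus strand) also carries a pair, and the matching 74 bases of its neighbour Ifit3b (chr19:34607754-34607827, plus strand) are identical.
Ifit1: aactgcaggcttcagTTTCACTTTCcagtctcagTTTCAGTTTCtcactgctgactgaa
Ifit3: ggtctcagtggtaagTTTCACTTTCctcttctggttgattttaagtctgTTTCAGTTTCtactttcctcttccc
In Isg15 (chr4:156200860-156200911, minus strand) response elements overlap in a run of GAAA repeats. In Bst2 (chr8:71537572-71537623, minus strand) a gamma-activated site overlaps the first of a pair of overlapping response elements.
Isg15: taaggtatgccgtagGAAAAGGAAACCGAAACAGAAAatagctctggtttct
Bst2: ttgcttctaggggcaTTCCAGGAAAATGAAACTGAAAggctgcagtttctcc
The neighbouring GTPase genes Igtp (chr11:58199496-58199546, plus strand) and Irgm2 (chr11:58214887-58214937, plus strand) share the order of a gamma-activated site followed by a response element, and 49 of 51 bases.
Igtp: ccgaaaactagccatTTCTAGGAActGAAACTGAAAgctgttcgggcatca
Irgm2: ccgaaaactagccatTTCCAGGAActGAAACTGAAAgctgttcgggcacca
In Gbp2 (chr3:142620589-142620628, plus strand) a single response element was found and no gamma-activated site.
Gbp2: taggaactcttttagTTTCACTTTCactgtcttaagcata

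Across all libraries the members were expressed at low to moderate levels. The median of their means over the 9 libraries was 5.63 FPKM, against 4.42 for all tested genes. Of the 36 members, 9 had a mean above 10 FPKM, 26 lay between 1 and 10, and Mx1 lay below 1. Bst2, Ifi27 and Iigp1 were the most abundant, and no library was below 46.0 FPKM in any of these 3. The members varied more between libraries of a group than most genes: the pooled within-group SD on the log2 scale had a median of 0.26 over members, from 0.08 (Ifih1) to 0.43 (Isg15), against 0.13 for all tested genes and 0.13 for tested genes with means of 1 to 10 FPKM.

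**Figure D1:**
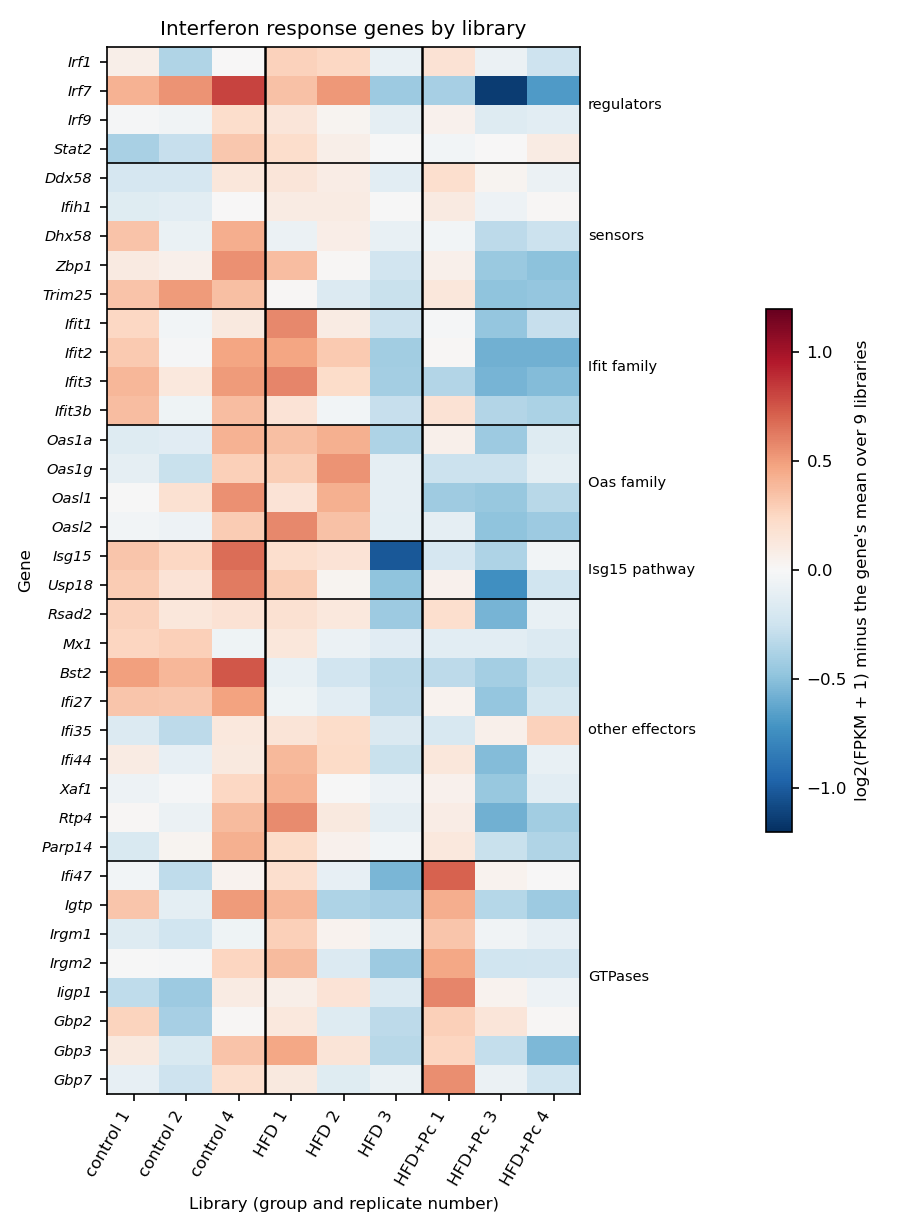
Each row is 1 of the 36 members, ordered by role, and each column 1 library. Color gives log2(FPKM + 1) minus the gene's mean over the 9 libraries, red above and blue below. HFD replicate 3 is bluer than the other HFD libraries in nearly every row, and most GTPase rows are reddest in HFD+Pc replicate 1.

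HFD was set against control to ask which members differ with the diet. Bst2 and Ifi27 fell and none rose, so 2 of 35 tested members passed (5.71%), where 9.97% of all tested genes passed (5.35% lower and 4.61% higher). At an unadjusted p under 0.05 there were 3 members, and 27.8% of all tested genes. The differences of 16 members were above 0 and of 19 below, with a median of -0.03, against 0.00 over all tested genes. All HFD libraries lay below all control libraries in 4 members (16.4% of all tested genes) and above in 0 (16.5%).

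HFD+Pc was set against HFD to ask which members differ with the bacterium. By limma 0 of 35 members passed, where 0.628% of all tested genes passed, and the lowest adjusted p was 0.140 (Oasl1). At an unadjusted p under 0.05 there were 6 members, and 15.6% of all tested genes, and limma-voom on the recovered reads also called 0. The differences of 27 members were below 0 and of 8 above, with a median of -0.14, against 0.01 over all tested genes. All HFD+Pc libraries lay below all HFD libraries in 2 members (9.56% of all tested genes). Without HFD replicate 3, Irf7 and Ifit3 fell, where 1.13% of all tested genes passed.

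HFD+Pc was also set against control, a comparison that shares its control libraries with the first and its HFD+Pc libraries with the second. Of 35 members, 7 fell and 0 rose: Irf7, Dhx58, Trim25, Ifit3, Oasl1, Bst2 and Ifi27. This was 20.0% of the tested members, where 23.1% of all tested genes passed (11.9% lower and 11.1% higher). The differences of 25 members were below 0 and of 10 above, with a median of -0.28, against 0.01 over all tested genes. At an unadjusted p under 0.05 there were 12 members, and 38.2% of all tested genes. All HFD+Pc libraries lay below all control libraries in 10 tested members (20.8% of all tested genes) and above in 0 (22.1%). Limma-voom called the same 7 genes. The count was 3 without HFD+Pc replicate 3, where 12.8% of all tested genes passed. It was 9 without HFD replicate 3 (24.3% of all tested genes) and 9 without HFD+Pc replicate 1 (19.1%).

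**Figure D2:**
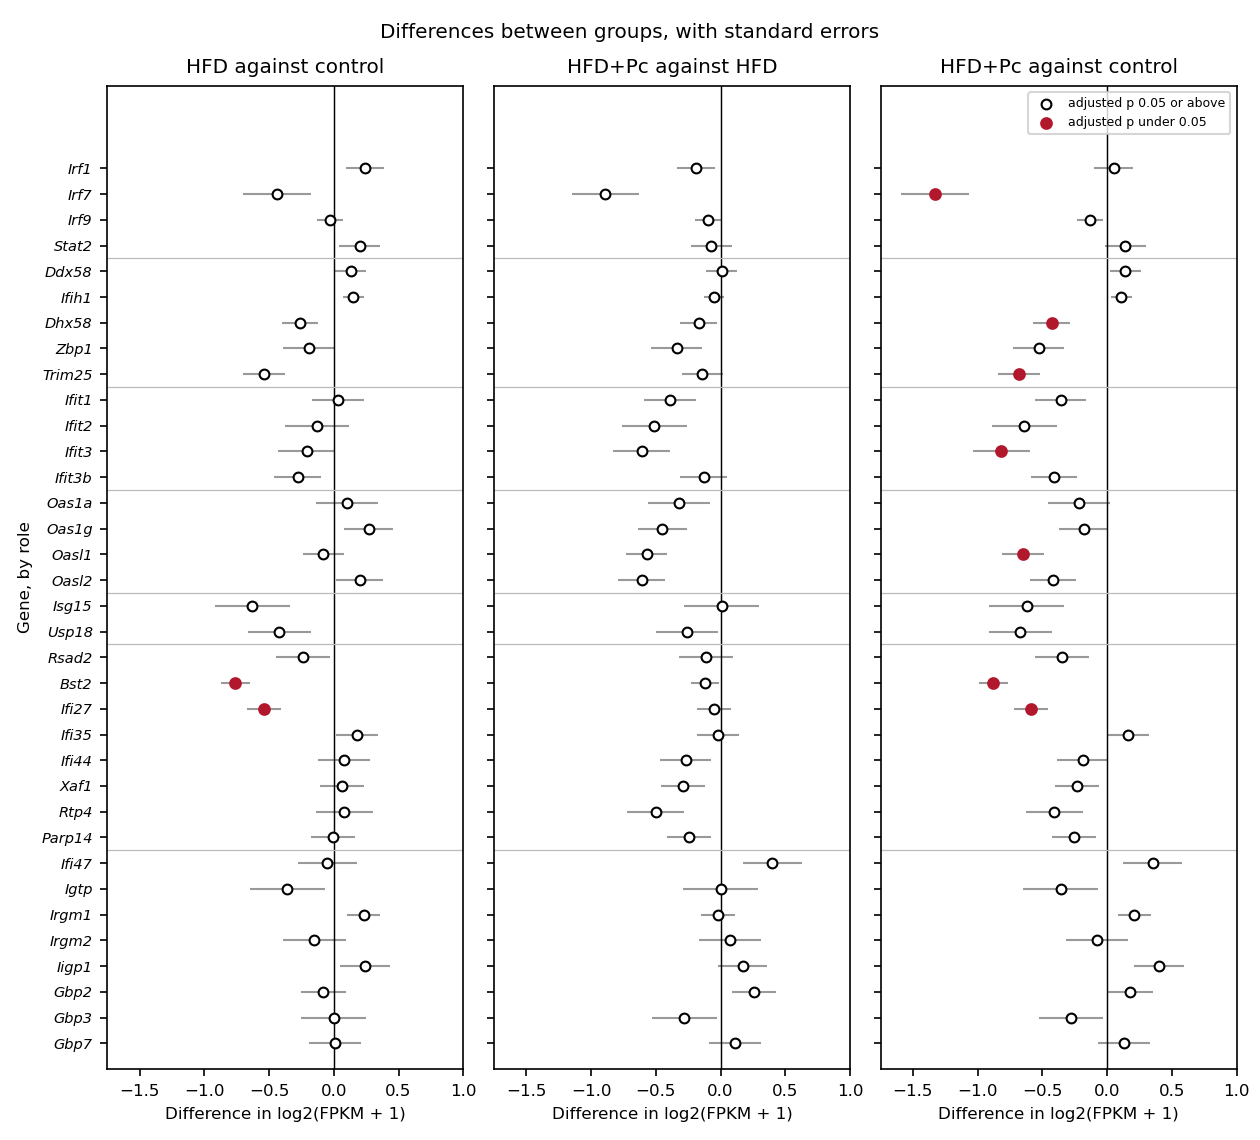
Each panel is 1 comparison, with the 35 tested members in rows ordered by role. Points give the difference in log2(FPKM + 1) and lines its SE, and filled red points have an adjusted p under 0.05. Bst2 and Ifi27 are filled in the first panel, none in the second and 7 in the third, all to the left of 0.

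Among the 4 regulators, Irf7, the transcription factor that amplifies interferon production, fell in HFD+Pc livers against control. Its level was 19.2, 21.0 and 25.5 FPKM in the control libraries, 18.3, 20.7 and 10.2 in HFD replicates 1, 2 and 3, and 10.5, 5.86 and 8.44 in the HFD+Pc libraries. Every HFD+Pc library lay below every control library, and HFD replicate 3 lay among the HFD+Pc libraries. Against control the difference was -1.33 ± 0.26 (limma adjusted p = 0.00916), and it passed without each library in turn. Against HFD it was -0.89 ± 0.26 (limma adjusted p = 0.159, and 0.0444 without HFD replicate 3), and HFD against control it was -0.44 ± 0.26 (limma adjusted p = 0.305).

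The other regulators did not pass with all libraries. Stat2, the DNA-binding partner of Irf9 in the interferon-activated complex, was at 6.39, 6.96 and 11.1 FPKM in control, 10.2, 9.13 and 8.60 in HFD, and 8.45, 8.68 and 9.35 in HFD+Pc. Control replicate 4 held the highest value of the 9 libraries and the other control libraries the lowest values. Its differences against control were 0.20 ± 0.16 for HFD and 0.14 ± 0.16 for HFD+Pc. Without control replicate 4 it rose in both (0.42, limma adjusted p = 0.0408, and 0.36, limma adjusted p = 0.0360). Irf9 ranged only from 6.60 to 8.76 FPKM over the 9 libraries, and Irf1, a transcription factor induced by interferon-gamma, from 3.64 to 6.20 FPKM.

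Of the 5 sensors, 2 fell in HFD+Pc against control. Trim25, a ubiquitin ligase that supports RIG-I signalling, was at 34.7, 39.1 and 35.2 FPKM in control, 27.4, 24.1 and 22.4 in HFD, and 29.8, 19.1 and 19.4 in HFD+Pc. All libraries of both high-fat groups lay below all control libraries. The difference was -0.68 ± 0.16 for HFD+Pc against control (limma adjusted p = 0.0154) and -0.54 ± 0.16 for HFD against control (limma adjusted p = 0.0586). The former was not called without control replicate 2 or HFD+Pc replicate 3 (limma adjusted p = 0.0530 and 0.0583). The latter was called in 1 of the 9 fits without 1 library, that without HFD+Pc replicate 1 (limma adjusted p = 0.0140). The others gave up to 0.162. No HFD+Pc library enters this difference, which stayed at -0.54, while the estimate of spread shared by the groups changed.

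Dhx58, which encodes LGP2, the helicase that modulates the RNA sensors RIG-I and MDA5, was at 5.26, 3.67 and 5.69 FPKM in control, 3.71, 4.22 and 3.65 in HFD, and 3.85, 2.99 and 3.13 in HFD+Pc. Control replicate 2 lay within the range of the other groups. Dhx58 fell by 0.43 ± 0.14 in HFD+Pc against control (limma adjusted p = 0.0480). This call was the least stable of the 7: it held in 2 of 9 fits that each left out 1 library, those without control replicate 2 and without HFD+Pc replicate 1, and the largest limma adjusted p among the others was 0.147. With all libraries it was also lost under 7 of 11 other settings, among them quantile normalization (limma adjusted p = 0.0542) and a fit of the 2 groups alone (limma adjusted p = 0.0719). Ifih1, which encodes MDA5, was nearly level, at 5.47, 5.56 and 6.16 FPKM in control, 6.66, 6.66 and 6.13 in HFD, and 6.69, 5.83 and 6.21 in HFD+Pc (limma adjusted p = 0.235 for HFD against control). Ddx58, which encodes RIG-I, ranged from 4.82 to 6.67 FPKM. Zbp1, a sensor of Z-form nucleic acids, ranged from 1.29 to 3.71 FPKM and was lower in all HFD+Pc than in all control libraries (-0.53 ± 0.20, limma adjusted p = 0.0879).

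The Ifit proteins bind viral RNA and block its translation. Ifit3 was at 11.9, 9.71 and 13.0 FPKM in control, 13.7, 10.4 and 6.37 in HFD, and 6.69, 5.68 and 5.84 in HFD+Pc. HFD replicate 3 lay within the HFD+Pc range, and HFD replicate 1 above all other libraries. Ifit3 fell in HFD+Pc against control (-0.82 ± 0.22, limma adjusted p = 0.0277). The call was lost without control replicates 1 or 4 and without each HFD+Pc library, with limma adjusted p between 0.0514 and 0.0879. Against HFD the difference was -0.61 ± 0.22 (limma adjusted p = 0.234, and 0.0318 without HFD replicate 3).

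The other Ifit genes did not pass in any of the 3 comparisons. Ifit1 was at 6.44, 5.10 and 5.79 FPKM in control, 8.31, 5.70 and 4.23 in HFD, and 5.19, 3.53 and 4.15 in HFD+Pc. The spread within the HFD group exceeded the difference of its mean from the control mean (6.08 ± 2.07 against 5.77 ± 0.673 FPKM, SD, n = 3). Ifit2 ranged from 1.36 to 3.90 FPKM and Ifit3b from 1.21 to 2.71. All 4 family members had differences below 0 in HFD+Pc against HFD and against control, with medians of -0.45 and -0.52. Ifit3 and Ifit3b share 1700 bases of transcript at 97.8% identity, so their reads may have been split between them.

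The Oas genes encode sensors of double-stranded RNA, some of which make the second messenger that activates RNase L. Oasl1, a member without that enzymatic activity that limits Irf7 translation, was at 5.99, 6.95 and 9.26 FPKM in control, 6.85, 8.38 and 5.50 in HFD, and 4.19, 4.12 and 4.54 in HFD+Pc. All HFD+Pc libraries lay below all libraries of the other groups. It fell against control (-0.65 ± 0.16, limma adjusted p = 0.0186, and 0.0627 without HFD+Pc replicate 3). Against HFD the difference was -0.57 ± 0.16 (limma adjusted p = 0.140), and the lowest limma adjusted p in the 9 fits without 1 library was 0.0751.

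Oas1a was at 2.95, 3.00 and 4.87 FPKM in control, 4.65, 4.91 and 2.40 in HFD, and 3.58, 2.25 and 2.95 in HFD+Pc, and the 3 groups overlapped. Oas1g ranged from 0.654 to 1.89 FPKM and was lower in all HFD+Pc than in all HFD libraries (-0.45 ± 0.19, limma adjusted p = 0.282). Oasl2, at 0.739 to 2.61 FPKM, was lower in all HFD+Pc than in all control libraries (-0.42 ± 0.18, limma adjusted p = 0.129). Oas1a and Oas1g share 1861 bases at 97.6% identity, and their reads may have been split.

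Isg15 is a ubiquitin-like protein that is attached to other proteins during the response, and Usp18 removes it and dampens receptor signalling. Isg15 was at 8.67, 8.12 and 11.2 FPKM in control, 7.83, 7.62 and 2.79 in HFD, and 5.69, 4.92 and 6.49 in HFD+Pc. HFD replicate 3 was the lowest of all 9 libraries, and all libraries of both high-fat groups lay below all control libraries. The differences against control were -0.63 ± 0.29 for HFD and -0.62 ± 0.29 for HFD+Pc (limma adjusted p = 0.198 and 0.153). In HFD+Pc against control Isg15 passed in 1 of the 9 fits without 1 library, that without HFD replicate 3 (limma adjusted p = 0.0110). The others gave up to 0.349. No HFD library enters this difference, which stayed at -0.62, while the estimate of spread shared by the groups changed. Of 11 other settings it passed in 1, the fit of the 2 groups alone (limma adjusted p = 0.0175). A stretch of 482 bases of Isg15 recurs at 95.2% identity in another gene model, with a mean of 0.121 FPKM, so some of its reads may be ambiguous.

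Usp18 was at 5.50, 4.89 and 7.07 FPKM in control, 5.43, 4.38 and 2.75 in HFD, and 4.43, 2.16 and 3.44 in HFD+Pc. All HFD+Pc libraries lay below all control libraries (-0.67 ± 0.24, limma adjusted p = 0.0718). It passed in 2 of the 9 fits without 1 library. These were without HFD replicate 3 (limma adjusted p = 0.0434, with the difference unchanged at -0.67) and without HFD+Pc replicate 1 (limma adjusted p = 0.0495). The others gave up to 0.214. Of 11 other settings it passed in 0 (limma or limma-voom adjusted p 0.0600 to 0.180).

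Among the other effectors, Bst2 and Ifi27 fell in both high-fat groups against control. Bst2 encodes tetherin, which holds budding virions at the cell surface. Its level was 186, 174 and 221 FPKM in control, 124, 112 and 105 in HFD, and 106, 98.8 and 109 in HFD+Pc. All high-fat libraries lay below all control libraries, and the HFD and HFD+Pc ranges overlapped. The group means were 194 ± 24.4, 114 ± 9.67 and 105 ± 5.28 FPKM (SD, n = 3). The differences against control were -0.76 ± 0.11 for HFD (limma adjusted p = 0.00722) and -0.88 ± 0.11 for HFD+Pc (limma adjusted p = 0.00177), and both passed without each library in turn. HFD+Pc against HFD it was -0.12 ± 0.11 (limma adjusted p = 0.658).

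Ifi27, a small hydrophobic interferon-induced protein, was at 80.7, 80.2 and 89.9 FPKM in control, 61.6, 58.5 and 51.3 in HFD, and 65.7, 46.0 and 55.1 in HFD+Pc. All high-fat libraries again lay below all control libraries. It fell by 0.54 ± 0.13 in HFD (limma adjusted p = 0.0334) and by 0.59 ± 0.13 in HFD+Pc (limma adjusted p = 0.0125) against control. The second call held without each library in turn. The first was lost without any 1 of the control or HFD libraries (limma adjusted p 0.0578 to 0.0910). HFD+Pc against HFD it was -0.05 ± 0.13 (limma adjusted p = 0.892).

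Of the remaining effectors, 6 were tested and none passed by limma or limma-voom in any comparison. Rsad2, which encodes the antiviral radical-SAM enzyme viperin, ranged from 2.08 to 4.51 FPKM, and Rtp4, a chaperone of membrane receptors, from 5.54 to 13.5. Ifi35 ranged from 4.84 to 7.75 FPKM, Ifi44 from 0.555 to 1.91, Xaf1 from 0.916 to 2.50, and the ADP-ribosyltransferase Parp14 from 4.02 to 7.65. HFD+Pc replicate 3 held the lowest value of the 9 libraries in Rsad2, Rtp4, Ifi44 and Xaf1. Mx1, an antiviral dynamin-like GTPase whose gene carries a deletion in C57BL/6 and most other laboratory strains, ranged from 0.516 to 1.07 FPKM. It was 1.03, 1.07 and 0.643 FPKM in control, 0.864, 0.616 and 0.550 in HFD, and 0.559, 0.552 and 0.516 in HFD+Pc, and shares 921 bases at 94.8% identity with Mx2.

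**Figure D3:**
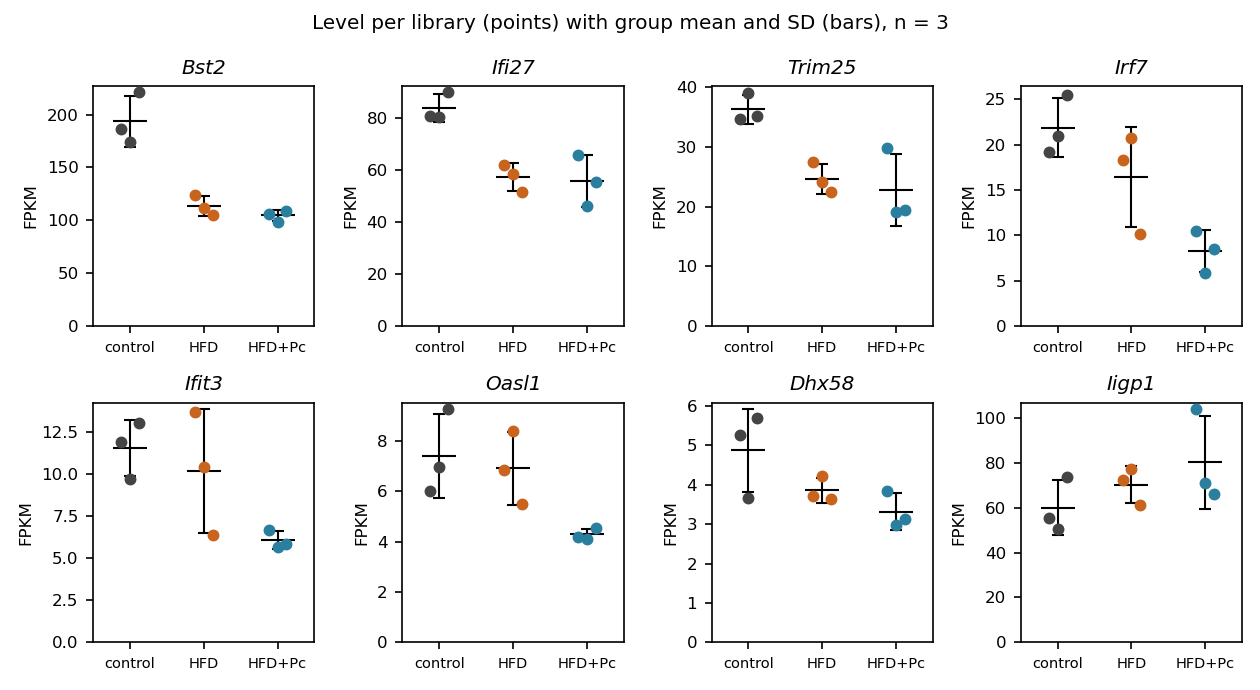
FPKM (vertical axis, from 0) of the 7 members that fell in HFD+Pc against control and of the GTPase Iigp1, by group. Points are libraries, and bars are the group mean and SD (n = 3). For Bst2, Ifi27 and Trim25 all points of both high-fat groups lie below all control points, while for Irf7 and Ifit3 the lowest HFD point, replicate 3, lies among the HFD+Pc points.

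The interferon-inducible GTPases attack the membranes of vacuoles that hold intracellular microbes, and most are induced mainly by interferon-gamma. None of the 8 passed by limma or limma-voom in any comparison, and none had an unadjusted p under 0.05. Their differences had a median of -0.02 between HFD and control, of 0.09 between HFD+Pc and HFD, and of 0.16 between HFD+Pc and control, with a median SE of 0.21. Iigp1, the most abundant, was at 55.6, 50.7 and 73.8 FPKM in control, 72.3, 77.2 and 61.1 in HFD, and 104, 70.9 and 65.9 in HFD+Pc. HFD+Pc replicate 1 stood above the rest. Against control the HFD+Pc difference was 0.40 ± 0.19 (limma adjusted p = 0.158).

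Irgm2 was at 22.4, 22.3 and 27.1 FPKM in control, 29.6, 20.0 and 16.4 in HFD, and 31.4, 18.9 and 19.0 in HFD+Pc, and replicate 1 was the highest of each high-fat group. The other GTPases ranged from 11.2 to 22.5 FPKM (Igtp), 9.37 to 14.4 (Irgm1), 6.78 to 17.6 (Ifi47), 2.36 to 4.39 (Gbp2), 2.59 to 6.19 (Gbp3) and 2.70 to 5.45 (Gbp7). In HFD+Pc replicate 1 all 8 GTPases were at the highest level of their group. Igtp and Irgm2 are neighbours that share 162 exonic bases, and reads from there may count for either.

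The remaining 27 tested members had median differences of -0.03, -0.24 and -0.41 in the same 3 comparisons, and 15, 25 and 22 of the 27 were below 0. All 7 genes that fell in HFD+Pc against control belong to these. The difference between the GTPases and the other members was not tested.

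Within a group, the members tended to be high or low in the same library. HFD replicate 3 was the lowest of its group in 34 of 35 tested members, where it was the lowest in 34.9% of all tested genes. Control replicate 4 was the highest of its group in 30 of 35 (34.6% of all tested genes), and HFD+Pc replicate 1 in 29 of 35 (33.7%). HFD replicate 1 was the highest of its group in 27 of 35 (31.7%), and control replicate 2 the lowest in 26 of 35 (32.9%). The members are therefore not independent of each other within a library, and counts over them describe these libraries.

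Summarised as the median deviation from each gene's mean, the 27 members other than GTPases stood at 0.10, -0.04 and 0.37 in the control libraries. They stood at 0.22, 0.10 and -0.23 in HFD and at 0.05, -0.44 and -0.25 in HFD+Pc. For the 8 GTPases the values were -0.03, -0.24 and 0.15 in control, 0.25, -0.12 and -0.32 in HFD, and 0.45, -0.06 and -0.17 in HFD+Pc. On these medians the groups overlapped for either set of members.

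Macrophage markers were followed beside the members. The 12 markers, all tested and none at 0 in any library, summed to 436 to 604 FPKM in control, 431 to 583 in HFD and 314 to 490 in HFD+Pc. Their median deviations were -0.01, 0.00 and 0.33 in control, 0.24, 0.26 and -0.07 in HFD, and 0.09, -0.40 and -0.53 in HFD+Pc. Control replicate 4 was again the highest of its group, HFD replicate 3 the lowest and HFD+Pc replicate 1 the highest. The endothelial markers held the same positions. Their median deviations were 0.24, 0.22 and 0.33 in control, -0.25, 0.01 and -0.28 in HFD, and 0.06, -0.02 and -0.09 in HFD+Pc. Other positions differed: members other than GTPases were highest in HFD replicate 1 and lowest in control replicate 2 and HFD+Pc replicate 3. The macrophage markers were highest in HFD replicate 2 and lowest in control replicate 1 and HFD+Pc replicate 4. In HFD+Pc against HFD 0 of 12 passed by limma or limma-voom, with 6 at an unadjusted p under 0.05, and all 12 differences were below 0 (median -0.43). In HFD+Pc against control, 2 of 12 fell (16.7%, where 23.1% of all tested genes passed), the complement genes C1qa (-1.18 ± 0.22, limma adjusted p = 0.00781) and C1qc (-0.54 ± 0.15, limma adjusted p = 0.0329), and 10 of 12 differences were below 0. C1qa passed without each library in turn, and C1qc did not pass without control replicates 1 or 4 or HFD+Pc replicates 3 or 4. In HFD against control 1 of 12 rose (8.33%, where 9.97% of all tested genes passed), the lysozyme gene Lyz2 (0.81 ± 0.21, limma adjusted p = 0.0434). This call held in 3 of the 9 fits without 1 library (without control replicate 4 or HFD+Pc replicates 1 or 4). Their part in the members' differences was not tested, and in bulk tissue fewer cells of a type and less RNA per cell cannot be told apart.

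**Figure D4:**
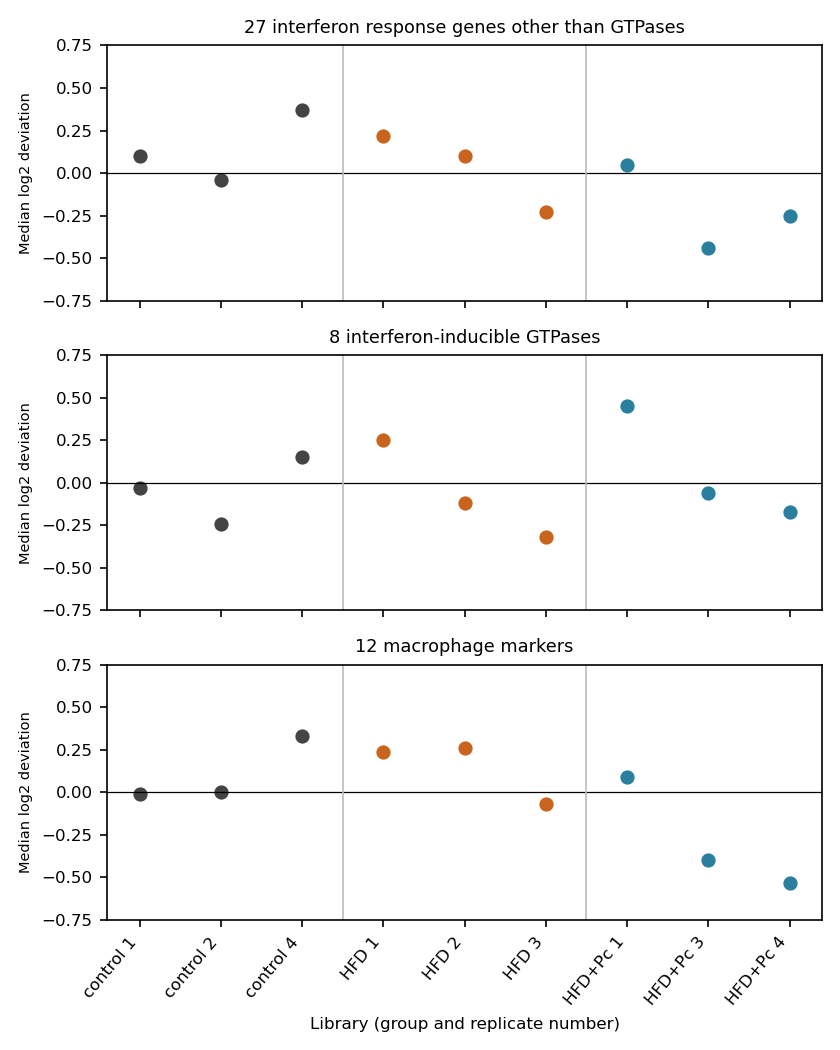
Each point is 1 library, and the vertical axis is the median over the named genes of log2(FPKM + 1) minus the gene's mean over the 9 libraries. Panels show the 27 members other than GTPases, the 8 GTPases and 12 macrophage markers. In all 3 panels control replicate 4 and HFD+Pc replicate 1 are the highest and HFD replicate 3 the lowest of their groups. The endothelial markers, not shown, held the same positions.

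The 9 endothelial markers summed to 104 to 115 FPKM in control, 73.1 to 94.0 in HFD and 81.4 to 86.4 in HFD+Pc. Of these, 3 fell in HFD against control (Kdr, Stab1 and Stab2, 33.3%, where 9.97% of all tested genes passed). In HFD+Pc against control 1 fell (Cdh5, 11.1%, where 23.1% of all tested genes passed), and all 9 differences were below 0 in both comparisons. Kdr and Stab2 did not pass without control replicate 2, Stab1 not without any 1 control library or HFD replicates 1 or 3, and Cdh5 passed in all 9 such fits. The 8 hepatocyte markers summed to 54397 to 55821 FPKM in control, 36907 to 40391 in HFD and 42263 to 56800 in HFD+Pc. They had differences below 0 in 8 of 8 for HFD against control and in 7 of 8 for HFD+Pc against control, with medians of -0.47 and -0.42. Of these, 1 fell in HFD (Apoa1, 12.5%) and 3 in HFD+Pc (Apoa1, Ass1 and Hnf4a, 37.5%) against control, beside the same 9.97% and 23.1% of all tested genes. Hnf4a passed in all 9 fits without 1 library, Ass1 in 6 and Apoa1 in 3 for HFD and 4 for HFD+Pc. Bst2, Ifi27, Trim25 and Isg15 were lower in all libraries of both high-fat groups than in all control libraries. The part of endothelial or hepatocyte RNA in this was not tested. The 7 B and plasma cell markers summed to 20.2 to 27.5 FPKM in control, 48.9 to 77.9 in HFD and 24.6 to 35.2 in HFD+Pc. Of 4 tested, 2 rose in HFD against control whichever library was left out, the immunoglobulin genes Igkc (1.41 ± 0.21, limma adjusted p = 0.00788) and Jchain (0.91 ± 0.16, limma adjusted p = 0.0138). HFD+Pc against HFD they differed by -1.03 ± 0.21 and -0.79 ± 0.16 (limma adjusted p = 0.0634 for either), and limma-voom called both, with 1.69% of all its genes. Their part in the members' differences was not tested. The 8 dendritic cell markers summed to only 2.51 to 3.41 FPKM, and the 11 T and NK cell markers to 4.90 to 10.4, over all 9 libraries.

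The ligands of the pathway were hardly detected. Of 10 interferon genes, 8 (Ifna1, Ifna2, Ifna4, Ifna5, Ifnb1, Ifne, Ifnl2 and Ifnl3) were at 0 in all 9 libraries. Ifnk was at 0 to 0.443 FPKM, with 21 reads over all libraries, and Ifng at 0 to 0.180 FPKM, with 11 reads. None could be tested, and differences between groups were not detectable at this depth.

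Of 21 receptor and signalling genes 19 were tested. The untested genes were Ifnlr1, a type III interferon receptor chain, at 0 to 0.142 FPKM, and the feedback inhibitor Socs1, at 0.102 to 0.285. Among those tested, limma and limma-voom called 0 in each comparison, with 1, 1 and 2 genes at an unadjusted p under 0.05. Jak1, a receptor kinase, ranged from 16.6 to 20.9 FPKM, and Stat3, a transcription factor of the same signalling family, from 10.6 to 16.3. The medians of the differences were 0.01, 0.01 and -0.01.

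In the sensing pathways upstream of interferon, 9 of 12 genes were tested. Traf3, an adaptor that links sensors to the kinase Tbk1, rose against control in HFD (0.43 ± 0.12, limma adjusted p = 0.0494) and HFD+Pc (0.41 ± 0.12, limma adjusted p = 0.0361). Its level was 1.47, 1.58 and 1.11 FPKM in control, 2.0, 2.69 and 2.0 in HFD, and 1.88, 2.47 and 2.14 in HFD+Pc, so all high-fat libraries lay above all control libraries. The first call was lost whichever of the 9 libraries was left out (limma adjusted p 0.0505 to 0.128). The second was lost in 5 of them, those without any control library or without HFD+Pc replicate 3 or 4. Mavs, the mitochondrial adaptor of RIG-I and MDA5, ranged from 18.8 to 28.0 FPKM, and Tbk1 from 6.10 to 8.48, and neither passed by limma. In HFD against control limma-voom called 3 of the 9 genes as higher, Traf3, Mavs and Tlr7, where limma called 1. Over all tested genes limma-voom called 13.6% and limma 9.97%.

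Of 45 other interferon-stimulated genes 41 were tested. In HFD against control 3 passed (7.32%, where 9.97% of all tested genes passed): 1 rose, Samd9l (0.42 ± 0.11, limma adjusted p = 0.0391), and 2 fell, Tor3a (-0.85 ± 0.14, limma adjusted p = 0.0103) and Ifi27l2b (-0.82 ± 0.19, limma adjusted p = 0.0320). Tor3a, an ATPase of the endoplasmic reticulum, was at 7.99, 10.2 and 9.39 FPKM in control, 5.45, 4.62 and 3.96 in HFD, and 5.44, 4.26 and 3.76 in HFD+Pc. All its high-fat libraries lay below all control libraries, and its calls held without each library in turn. The call of Samd9l held in 2 of the 9 fits without 1 library (without HFD replicate 3 or HFD+Pc replicate 1). That of Ifi27l2b was lost without any control library or without HFD replicate 1 or 3. Ifi27l2b belongs to the same family as Ifi27. In HFD+Pc against HFD limma called 0 (8 at an unadjusted p under 0.05) and limma-voom 1.

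In HFD+Pc against control 2 of the 41 rose and 4 fell (14.6%, where 23.1% of all tested genes passed). Those that rose were Ube2l6, the conjugating enzyme for Isg15 (0.49 ± 0.11, limma adjusted p = 0.0128), and Pnpt1, a mitochondrial RNA-degrading enzyme (0.43 ± 0.12, limma adjusted p = 0.0301). Ube2l6 was at 29.3, 25.3 and 26.5 FPKM in control, 32.1, 29.3 and 32.3 in HFD, and 32.5, 41.7 and 41.8 in HFD+Pc. Those that fell were Tor3a (-0.90 ± 0.14, limma adjusted p = 0.00358), the RNA helicase-like Znfx1 (-0.38 ± 0.10, limma adjusted p = 0.0277), Apol9a (-1.03 ± 0.21, limma adjusted p = 0.0103) and Apol9b (-0.86 ± 0.27, limma adjusted p = 0.0474).

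Apol9b was at 52.5, 47.4 and 48.4 FPKM in control, 48.1, 45.0 and 20.4 in HFD, and 29.6, 25.8 and 25.0 in HFD+Pc. HFD replicate 3 was the lowest of the 9 libraries, as it was for Isg15. Shared stretches were searched for the members only, so a split of reads between Apol9a and Apol9b was not checked. Ube2l6 was not called without HFD+Pc replicate 3 (limma adjusted p = 0.0511). Pnpt1 was not called without any 1 control library or HFD+Pc replicates 3 or 4, and Znfx1 not without control replicates 2 or 4 or HFD+Pc replicates 3 or 4. Apol9b held only where HFD replicate 1 or 3 was left out, and Apol9a whichever of the 9 libraries was left out. The most abundant of these genes were Ifitm3, which restricts viral entry, at 356 to 464 FPKM, and the galectin Lgals9 at 182 to 237 FPKM, and neither passed.

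Further genes induced mainly by interferon-gamma did not pass. Of 17 such genes 12 were tested, and limma and limma-voom called 0 in each comparison, with 1, 0 and 1 genes at an unadjusted p under 0.05. Cxcl9, a chemokine for T cells, ranged from 3.34 to 6.58 FPKM. Ccl5, another T-cell chemokine, ranged from 1.79 to 7.61 FPKM, with the highest value in HFD replicate 1. The differences of 11 of the 12 were above 0 in HFD against control (median 0.13), 4 in HFD+Pc against HFD (median -0.08) and 10 in HFD+Pc against control (median 0.10).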

How the data were processed

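The authors deposited 1 table of FPKM values for 9 liver libraries. Per the submitters' processing notes HISAT2 2.0.5 was the aligner and GRCm39 the genome build. The counting tool and annotation are not given in the sources used here. A gene name table gave symbols for 52093 of 53700 rows with Ensembl identifiers.

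The test covered 10988 genes that reached 1 FPKM in 3 or more libraries, on log2(FPKM + 1), a pseudocount of 1, with limma 3.58.1 in R 4.3.3 (lmFit, eBayes with trend and robust estimation), all 9 libraries in 1 model, Benjamini-Hochberg adjustment and a threshold of 0.05. Whole reads could be recovered for 98.2% of 26278 genes above 0, within 0.02 of a whole number, and all 36 members. These reads served limma-voom as an alternative. Library totals of 16559928 to 18928014 reads set the counting error, and each SE or SD is the spread between libraries. Tables and motif searches used Python 3.11.15, numpy 2.4.6 and pandas 2.3.3, and shared stretches (at least 100 bases at 90% identity) used BLAST 2.17.0+ and an annotation of an earlier build, which gave no coordinates.

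Members and lists were chosen with earlier results of these data known. Values in every library are given for members that passed in any comparison and for the 2 most abundant of each role; from the other pathway lists, genes that passed and the 2 most abundant. Mx1, Ifnlr1, Socs1, Tlr7 and the genes of the marker lists were named after their values were seen. Alternatives were other pseudocounts, filters, scalings, thresholds, fits of 2 groups, a replicate block, and fits without 1 library.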

Additional observations from a re-analysis of the deposited data

How the results depend on the processing

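In HFD against control 2 members passed. The count was 1 with a filter of 0.1 FPKM (4.15% of all tested genes), without a filter (0.795%), with quantile normalization (10.5%) and with the replicate block (2.11%). Over the fits without 1 library the count was 1 to 3 (3.05% to 10.3% of all tested genes), and Bst2 held in each. In HFD+Pc against HFD the count was 0, except 2 without HFD replicate 3, where 1.13% of all tested genes passed (range over the fits without 1 library 0 to 2). In HFD+Pc against control the count was 7, and 3 without a filter (5.26% of all tested genes) and with the replicate block (9.63%), where Irf7, Bst2 and Ifi27 passed. The Dhx58 call was also lost with the 0.1 FPKM filter, quantile normalization, equal medians, 2 groups alone and no trend (limma adjusted p 0.0511 to 0.0752). Without 1 library the count was 3 to 9 (12.8% to 24.3% of all tested genes). Without a filter 26278 genes were tested and 5.26% of them passed in this comparison, against 23.1% of 10988 with it. The causes of these shifts were not tested. At an adjusted p under 0.1 the counts were 3, 0 and 10 of 35 members, and 1914, 236 and 3712 of all 10988 tested genes. Over all tested genes, the deviations of same-numbered libraries from their group means correlated at -0.12 to 0.05, which cannot exclude a pairing. Differently numbered libraries of different groups correlated at -0.11 to 0.14. Of the 35 tested members, 27 in HFD and 29 in HFD+Pc were highest of their group in replicate 1, but only 4 in control. The shares of all tested genes were 31.7%, 33.7% and 33.9%. In replicate 3, 34 members in HFD (34.9% of all tested genes) and 19 in HFD+Pc (25.6%) were lowest of their group.

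The 15 members described library by library as most abundant or called had 945 alternatives (the other 21 were not followed singly). Of these, 872 kept direction and side of the threshold, 38 lost and 12 gained a call, and 23 changed sign. Most alternatives concerned differences that had not passed and had no call to lose, so the 872 do not measure how stable the calls were. All 38 losses fell on Ifi27 in HFD against control, and on Dhx58, Trim25, Ifit3 and Oasl1 in HFD+Pc against control. Each sign change concerned a difference that had not passed. For HFD against control without 1 library these were Ifit1 (-0.19 to 0.23), Ifit3 (-0.44 to 0.06), Oas1a (-0.05 to 0.35), Oasl1 (-0.22 to 0.07) and Irgm2 (-0.38 to 0.03), and Oasl1 with the replicate block (0.05). For HFD+Pc against HFD they were Isg15 (-0.39 to 0.22), Ifi27 (-0.17 to 0.08), Irgm2 (-0.16 to 0.29) and Iigp1 (-0.03 to 0.29) without 1 library, Isg15 with the replicate block (-0.03), and Isg15 (-0.04) and Irgm2 (-0.01) by limma-voom. For HFD+Pc against control they were Irgm2 without 1 library (-0.31 to 0.04) and with the replicate block (0.00). Quantile, equal-median and trimmed-mean scaling moved the median of all genes by at most 0.02. Limma-voom on the recovered reads moved it by 0.08, -0.08 and 0.00 in the 3 comparisons. With 3 libraries a group, the median SE over members was 0.19, which is not a limit of detection. Differences well above it also failed to pass, such as Irf7 in HFD+Pc against HFD (-0.89 ± 0.26, limma adjusted p = 0.159).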
